A study of Mus musculus with 34 samples.

Results

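The data described here cover the first 2 months of recovery from the tobacco nitrosamine NNK in the mouse trachea: 5 libraries taken 2 months after the end of exposure (t2) were compared with 6 taken at its end (t0), across all genes. These 11 libraries are those that the labels place at the 2 times, out of 28 libraries from Gprc5a-/- mice and 34 in the series. By the labels, every mouse in the comparison carried the Gprc5a deletion. Gprc5a encodes an orphan receptor of lung epithelium, and its loss makes mice prone to lung tumours. Mice of the t0 and t2 groups received intraperitoneal NNK, 50 mg/kg in each of 3 weekly doses over 8 weeks. The baseline group, used here for levels only, had the same genotype and no NNK (n = 6). The labels give the same age, 6 to 8 weeks, for every group and do not say at which point of the schedule, so mice at t2 would be about 2 months older than those at t0, and age and time since NNK cannot be told apart. Each library came from the brushed airway surface of 1 mouse, and no mouse was sampled at both times.

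The tracheal surface is lined by basal cells, the resident progenitors, and by the club and ciliated cells to which they give rise. Club cells secrete protective proteins and carry cytochromes P450, and ciliated cells move mucus. NNK is turned by cytochromes P450 into products that alkylate DNA, and the lesions are met by direct repair, base excision and the p53 response. A brushing mixes these cells with whatever immune or underlying cells come along, so fewer cells of a type and less RNA per cell cannot be told apart in any result below.

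Total counts were 18574902 to 30271713 at t0 and 21232368 to 29514266 at t2. The low-complexity library labelled t2 339 had 14283 genes above 0 where the rest of the t2 group had 17234 to 18088, and it held 238 Gprc5a counts against at most 36 in the other 10 libraries compared. Whether this level goes against its knockout label was not tested, since wild-type levels were not used. Results are given with and without this library. The log2 fold change of Gprc5a between t0 and t2 was 2.099 ± 0.65 (SE, edgeR adjusted p = 0.015) with this library and 0.87 (adjusted p = 0.25) without it. Every other gene described by name below as risen or fallen passed in both fits, which was a condition for choosing genes to name. Counts over gene lists are from the fit with this library, and the count without it is added where it differs by over 1.5 times. Haemoglobin transcripts took 22.8% of counts in t0 357 and at most 1.76% in the other 10. The plot of principal components placed 5 t0 libraries at 72.8 to 91.6 on component 1 (35.1% of variance), t0 359 at 30.4 and the t2 libraries at -23.7 to 3.47. The labelled tissue carried its markers: the club cell gene Scgb1a1, the ciliated cell gene Foxj1 and the basal cell gene Krt5 were at 152 CPM (counts scaled to a common library size) or more in each of the 11 libraries. By Xist and Y-linked genes, t0 held 3 males and 3 females and t2 held 2 males and 3 females. Library t2 334, read as male by its Y-linked genes, also held 492 Xist counts, against 17.1 to 60.2 in the other males compared.

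**Figure D1:**
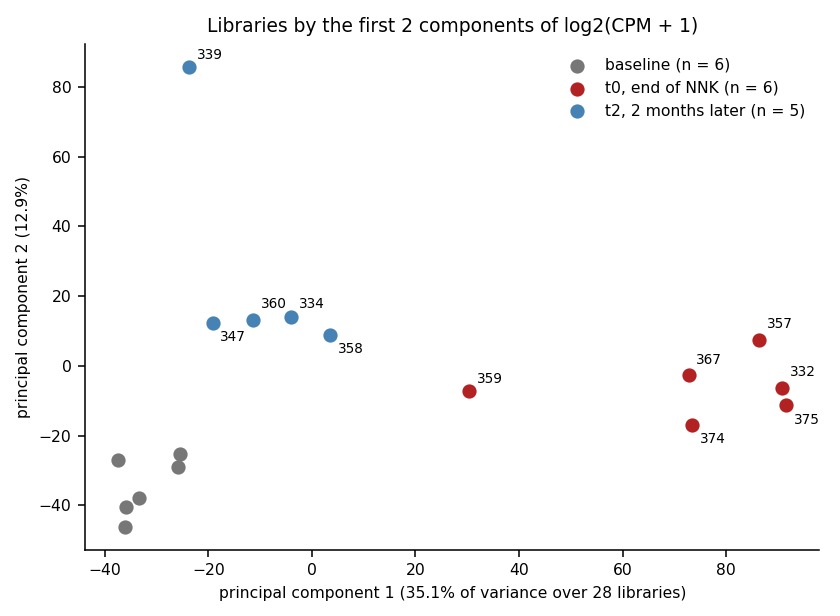
Each point is 1 library placed by the first 2 principal components of log2(CPM + 1) of 14847 genes, with t0 and t2 libraries labelled by animal number. The t0 libraries lie at 30.4 to 91.6 on component 1, the t2 libraries at -23.7 to 3.47, and t2 339 stands apart at 85.8 on component 2.

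Of 14847 genes tested, 4445 (29.9%) changed between t0 and t2 at an adjusted p under 0.05. Of these, 2330 (15.7%) were higher at t2 and 2115 (14.2%) were lower. Without t2 339, 4529 genes (30.5%) passed, 2300 higher (15.5%) and 2229 lower (15%), and 3789 genes were called in the same direction in both fits. At least 2-fold changes came to 1193 genes higher (8.04%) and 1174 lower (7.91%). For 1879 genes (12.7%) the 5 t2 values and the 6 t0 values did not overlap. The median log2 fold change over all genes tested was -0.02. Fold changes below are log2 of t2 over t0 with their standard error, levels are CPM scaled by TMM and given as mean ± SD (n = 6 at baseline and t0, n = 5 at t2), and shares of a gene list are read against 15.7% higher and 14.2% lower. A gene rose, fell or was called where edgeR's quasi-likelihood test gave an adjusted p under 0.05. Gene positions are those the authors deposited with the counts, for which they name mm10. Promoter windows are those of RefSeq on GRCm38.p6, the assembly that mm10 names. How reads shared between near-identical genes were counted, and whether strand was used, is not given in the sources used here, so Lyz2, Tuba1a, Ear1, Tpsb2, Ces1f, Ces2f, Serpinb1a, Acta1, Fth1, Ifi27, Ugt1a7c, Rps9 and Rpl32, which have close copies or shared exons, are uncertain.

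**Figure D2:**
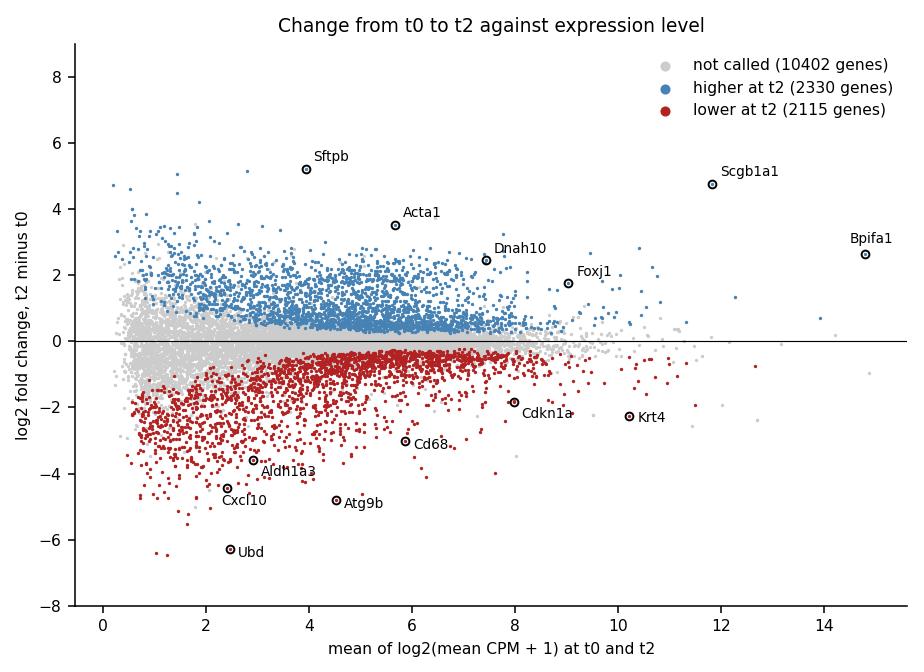
Each point is 1 of 14847 genes, with the mean log2(mean CPM + 1) of t0 and t2 on the horizontal axis and the log2 fold change of t2 over t0 on the vertical axis. Blue marks the 2330 genes higher at t2, red the 2115 lower, and rings mark named genes from Sftpb at 5.21 to Ubd at -6.29.

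For some lists, the called members went mostly in the same direction and the control element is textbook knowledge. Promoter sequences are shown first for 5 genes of such lists. Each is the 250 bases before a RefSeq start site (GRCm38.p6), 5′ to 3′ on the strand of the gene, with every match to the named motif, on either strand, in capitals. A match is a description of letters, not a binding site. The window of Dnah10 also overlaps a noncoding exon of 4930404A12Rik. RefSeq gives Tekt1 another start site, and its window (chr11:72361297-72361546, minus strand, not printed) held 0 matches. For the ciliary genes Dnah10 and Tekt1 the capitals mark the RFX half-site GTTGCC or its reverse GGCAAC. Mki67, a mitotic gene, holds the core of the cell cycle homology region, TTTGAA or its reverse TTCAAA. For the interferon-induced chemokine Cxcl10 the motif was TTTC, any 2 bases and TTTC (reverse GAAA, any 2 bases and GAAA), the core of the interferon-stimulated response element. Creld2, of the endoplasmic reticulum stress response, holds that response's element, CCAAT, any 9 bases and CCACG (reverse CGTGG, any 9 bases and ATTGG).
Dnah10, chr5:124724835-124725084, plus strand: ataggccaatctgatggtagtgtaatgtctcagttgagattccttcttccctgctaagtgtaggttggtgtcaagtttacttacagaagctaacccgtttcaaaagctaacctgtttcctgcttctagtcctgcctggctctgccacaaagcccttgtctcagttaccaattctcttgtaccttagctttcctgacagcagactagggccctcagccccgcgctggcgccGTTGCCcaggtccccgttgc
Tekt1, chr11:72361883-72362132, minus strand: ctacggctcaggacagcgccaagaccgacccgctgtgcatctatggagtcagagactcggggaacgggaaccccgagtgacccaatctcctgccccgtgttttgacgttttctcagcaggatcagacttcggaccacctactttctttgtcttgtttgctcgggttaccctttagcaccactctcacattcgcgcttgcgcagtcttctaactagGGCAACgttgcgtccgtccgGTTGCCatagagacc
Mki67, chr7:135716380-135716629, minus strand: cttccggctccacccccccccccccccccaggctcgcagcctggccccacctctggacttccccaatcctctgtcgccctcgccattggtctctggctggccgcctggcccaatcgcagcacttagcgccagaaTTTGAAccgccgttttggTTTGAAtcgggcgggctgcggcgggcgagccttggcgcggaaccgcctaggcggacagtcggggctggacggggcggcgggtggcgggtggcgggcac
Cxcl10, chr5:92348890-92349139, minus strand: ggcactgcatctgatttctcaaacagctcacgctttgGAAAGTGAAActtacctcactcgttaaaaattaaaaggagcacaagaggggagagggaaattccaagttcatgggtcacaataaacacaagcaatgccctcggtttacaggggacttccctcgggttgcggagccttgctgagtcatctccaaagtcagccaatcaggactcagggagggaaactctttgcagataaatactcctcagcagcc
Creld2, chr15:88819396-88819645, plus strand: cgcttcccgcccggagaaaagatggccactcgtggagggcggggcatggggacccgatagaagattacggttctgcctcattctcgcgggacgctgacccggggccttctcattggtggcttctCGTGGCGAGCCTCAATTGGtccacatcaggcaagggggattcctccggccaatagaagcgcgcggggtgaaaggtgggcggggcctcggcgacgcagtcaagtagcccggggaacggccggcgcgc
No match of these 4 motifs overlapped another in the windows shown. GTTGCC was in 15 of the 34 promoters of the axoneme list (44.1%, from 31 genes matched by symbol), in 6 of 24 of the intraflagellar transport list (25%) and in 10.4% of all 32851 promoters in the table. TTTGAA was in 9 of 25 promoters of the mitosis list (36%) and in 16% of all. The interferon-stimulated response core was in 11 of 26 promoters of interferon-stimulated genes (42.3%) and in 2.98% of all. The stress element was in 7 of 23 promoters of the unfolded protein response list (30.4%) and in 0.113% of all. List shares cover the promoters of all tested members matched by symbol, called or not. In the interferon-stimulated list 14 of 29 were not called, and in the unfolded protein response list 12 of 25.

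Club cell products were among the most changed genes of the comparison. Scgb1a1, the main secretoglobin of club cells (chr19:9083642-9087957), stood at 242, 673 and 1283 CPM (lowest, median and highest) in the 6 t0 libraries and at 23143, 15341, 10094, 19712 and 26701 CPM in the t2 libraries 334, 339, 347, 358 and 360. Every t2 library lay above every t0 library, and the log2 fold change was 4.76 ± 0.40 (SE, adjusted p = 1.4e-08). The baseline mean was 32328 ± 6969.6 CPM, and the log2 fold change against baseline was -5.53 at t0 and -0.77 at t2. Scgb3a1, a secretoglobin of upper airway secretory cells, had 513 ± 198 CPM at t0 (SD, n = 6) and 3596 ± 1466 at t2 (SD, n = 5), against 12073 ± 4540.2 at baseline (log2 fold change 2.81 ± 0.34, adjusted p = 1.2e-06). Of 18 club cell genes tested, 8 rose and 2 fell, with a median log2 fold change of 0.97. The fall with the smaller p was Krt15, a keratin that basal cells also make (log2 fold change -1.92 ± 0.34, adjusted p = 7.6e-05). Cyp2f2, the club cell cytochrome P450, did not pass: its log2 fold change was 0.19 ± 0.21 (adjusted p = 0.53), with means of 17785 CPM at t0 and 20312 at t2.

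Of 19 genes of secreted defence proteins tested, 7 rose and 2 fell (8 and 3 without the library labelled t2 339). Bpifa1, an antimicrobial and surface-active protein of the airway lining (chr2:154142880-154149218), stood at 8607, 10850.4 and 14915 CPM (lowest, median and highest) in the 6 t0 libraries and at 108388, 52125, 51631, 113674 and 30814 CPM in the t2 libraries 334, 339, 347, 358 and 360. No t2 value fell within the t0 range (log2 fold change 2.63 ± 0.34, adjusted p = 2.0e-06). Its relative Bpifb1 rose (log2 fold change 2.01 ± 0.34, adjusted p = 4.5e-05) and the mucosal scavenger protein Dmbt1 (log2 fold change 2.26 ± 0.47, adjusted p = 5.3e-04). The baseline mean of Dmbt1, 1148 ± 947 CPM, lay between the t0 mean of 738 ± 427 and the t2 mean of 3544 ± 896. Defb1, a defensin, was the defence gene with the smallest p among those that fell (log2 fold change -0.63 ± 0.17, adjusted p = 0.0055, or adjusted p = 0.06 with only the 11 libraries in the fit). Among 18 goblet cell genes 5 rose and 4 fell. Of the goblet markers, Spdef rose (log2 fold change 0.88, adjusted p = 0.0054). Muc5ac (log2 fold change 1.15, adjusted p = 0.16) and Agr2 (log2 fold change 0.45, adjusted p = 0.081) did not pass. In the submucosal gland list, which shares Bpifb1 and Dmbt1, 4 of 12 rose and 1 fell, with 2 higher without t0 332, t0 359, t0 367, t0 375 or t2 360. Clca1, a protease of goblet cell mucus, rose from 70.8 ± 23.1 to 667 ± 628 CPM (log2 fold change 3.24 ± 0.81, adjusted p = 0.0035), or 2.47 without t2 334. Creb3l1, a transcription factor of secretory cells, rose (log2 fold change 1.23 ± 0.23, adjusted p = 1.7e-04), and the membrane mucin Muc20 fell (log2 fold change -1.50 ± 0.22, adjusted p = 7.0e-06).

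Surfactant transcripts, which the distal lung makes in large amount, gave 6 rises and 1 fall among 12 genes tested. Sftpb, whose protein keeps the surfactant film stable (chr6:72304610-72314374), stood at 0.273, 2.07 and 3.45 CPM (lowest, median and highest) in the 6 t0 libraries and at 88.9, 31.4, 51.0, 155 and 52.9 CPM in the t2 libraries 334, 339, 347, 358 and 360. The lowest t2 value was 31.4 CPM and the highest t0 value 3.45 CPM (log2 fold change 5.21 ± 0.65, adjusted p = 2.0e-06). Sftpa1, a surfactant collectin, had 40.6 ± 21.3 CPM at t0 (SD, n = 6) and 263 ± 100.1 at t2 (SD, n = 5) (log2 fold change 2.70 ± 0.38, adjusted p = 6.1e-06), with 827 ± 281 CPM at baseline. Lyz2, a lysozyme of both alveolar cells and macrophages, rose (log2 fold change 1.33 ± 0.30, adjusted p = 0.0011). Sftpc, the defining marker of alveolar type II cells, stood at 0.623 to 5.91 CPM at t0, 10.3 to 25.2 at t2 and 2.18 to 12.2 at baseline (log2 fold change 2.46, adjusted p = 1.7e-04). The part of distal lung RNA in these rises was not tested.

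Genes of motile cilia rose together. All 34 tested genes of the axoneme list (36 were listed) were called higher at t2, with and without the library labelled t2 339, and the median log2 fold change was 2.11. Their t0 and t2 libraries did not overlap for 20 of the 34, against 12.7% of all genes tested. The list's median log2 fold change against baseline was -2.12 at t0 and -0.07 at t2. Dnah10, a heavy chain of the inner dynein arm (chr5:124725085-124834309), stood at 30.7, 58.8 and 153 CPM (lowest, median and highest) in the 6 t0 libraries and at 300.4, 440.3, 617, 201 and 448 CPM in the t2 libraries 334, 339, 347, 358 and 360. The t0 maximum came from t0 359, and the ranges did not overlap (log2 fold change 2.45 ± 0.30, adjusted p = 1.3e-06). Tuba1a, an alpha tubulin, rose from 442 ± 196 to 1565 ± 392 CPM (log2 fold change 1.82 ± 0.20, adjusted p = 4.9e-07). Tekt1, a tektin filament protein of the doublet microtubules, had 35.3 ± 25.7 CPM at t0 and 109 ± 30.0 at t2 (log2 fold change 1.63 ± 0.28, adjusted p = 6.5e-05), with groups that overlapped through t0 359.

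Of 28 intraflagellar transport and BBSome genes, whose products carry cargo along the cilium, 25 rose and 0 fell, with a median log2 fold change of 1.27. Their smallest p-values were those of the BBSome subunits Bbs9 (log2 fold change 1.41 ± 0.16, adjusted p = 7.0e-07) and Bbs2 (log2 fold change 1.15 ± 0.15, adjusted p = 2.0e-06). Among 15 regulators of multiciliated cells 7 rose and 0 fell. Foxj1, the master transcription factor of motile cilia (chr11:116330704-116335355), stood at 152, 256 and 595 CPM (lowest, median and highest) in the 6 t0 libraries and at 1031, 845, 953, 714 and 1290.2 CPM in the t2 libraries 334, 339, 347, 358 and 360. The t0 high of 595 CPM came from t0 359, and the groups did not overlap (log2 fold change 1.76 ± 0.27, adjusted p = 1.4e-05). Rfx3, a factor that binds the X-box of ciliary genes, rose (log2 fold change 1.96 ± 0.25, adjusted p = 2.0e-06), and the p53 relative Trp73 (log2 fold change 1.64 ± 0.21, adjusted p = 2.0e-06). Hspa4l, a chaperone of the list of cytosolic heat shock genes (5 of 23 higher, 0 lower), rose (log2 fold change 1.60 ± 0.22, adjusted p = 5.2e-06).

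**Figure D3:**
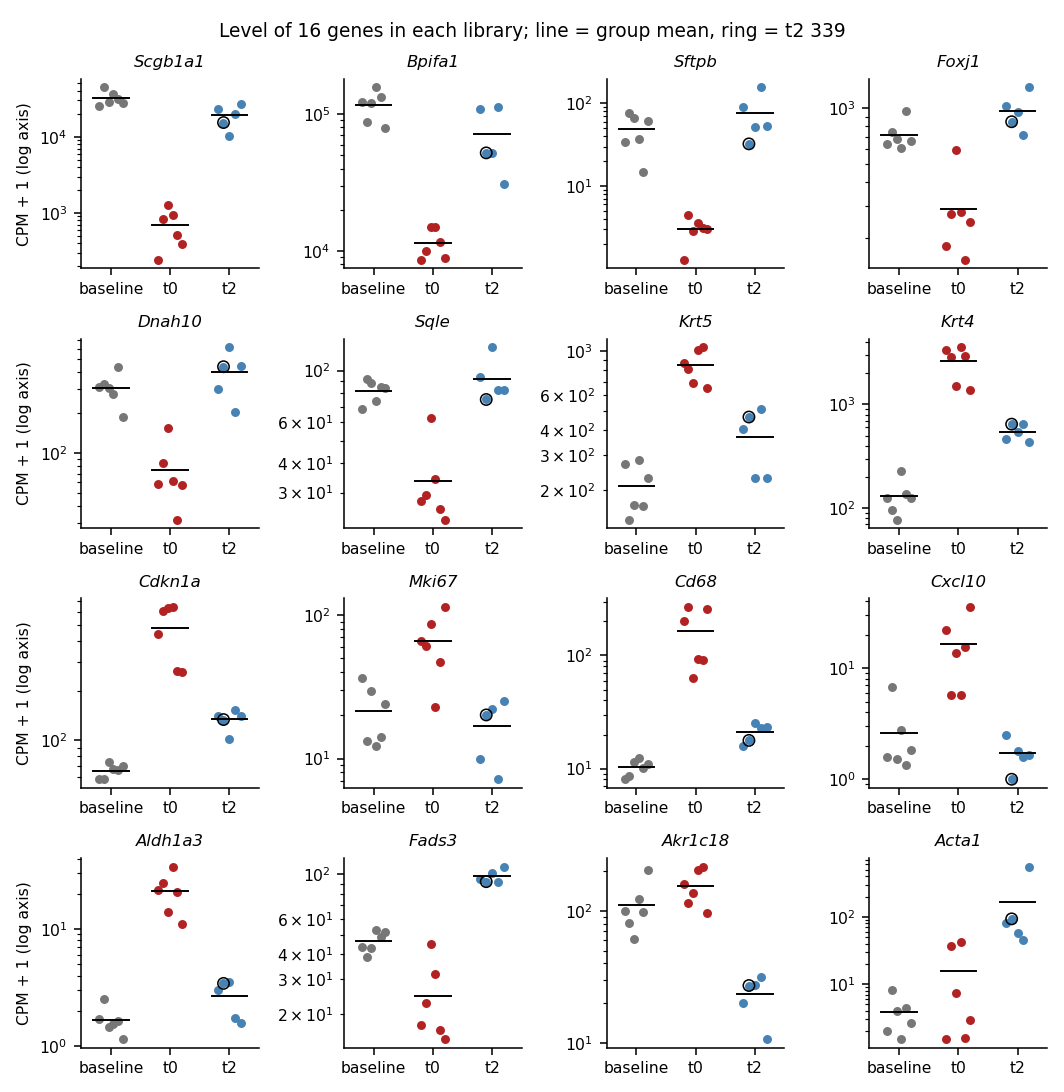
Each panel shows 1 gene, with CPM + 1 on a logarithmic axis for the 6 baseline, 6 t0 and 5 t2 libraries, lines at group means and a ring around t2 339. Scgb1a1 at t2 lies between 10094 and 26701 CPM, above every t0 library, and Krt4 and Cdkn1a lie below their t0 ranges but above their baseline means.

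Of 20 basal cell genes tested, 8 fell and 0 rose, and of 25 squamous and injury genes (of 30 listed) 10 fell and 0 rose. Without t2 339, 8 and 8 fell. The squamous and injury list shares S100a8 and S100a9 with the neutrophil list. Krt5, the keratin of basal cells (chr15:101707070-101712892), stood at 649, 838 and 1039.8 CPM (lowest, median and highest) in the 6 t0 libraries and at 402, 464, 230.2, 511 and 229.8 CPM in the t2 libraries 334, 339, 347, 358 and 360. Every t2 library lay below every t0 library (log2 fold change -1.20 ± 0.29, adjusted p = 0.0025), and the baseline mean was 209 ± 59.3 CPM. Aqp3, the basal cell water channel, had 861 ± 149 CPM at t0 and 284 ± 77.3 at t2 (log2 fold change -1.60 ± 0.30, adjusted p = 1.9e-04). Trp63, the transcription factor that defines basal cells, did not pass (log2 fold change -0.24 ± 0.20, adjusted p = 0.39). Krt4, a keratin of squamous and injured airway (chr15:101918535-101924736), stood at 1393, 2912 and 3580.2 CPM (lowest, median and highest) in the 6 t0 libraries and at 466, 645, 539, 648 and 435 CPM in the t2 libraries 334, 339, 347, 358 and 360. The groups did not overlap (log2 fold change -2.26 ± 0.31, adjusted p = 4.3e-06). The t2 level lay above the baseline of 129 ± 51.4 CPM, with a log2 fold change against it of 2.08. Upk1b, a uroplakin of stretched epithelium, fell from 1167 ± 375 to 260.2 ± 37.9 CPM (log2 fold change -2.16 ± 0.20, adjusted p = 5.1e-08), with 116 ± 23.9 CPM at baseline. The squamous marker Krt13 fell (log2 fold change -2.94, adjusted p = 0.0079). The squamous markers Krt6a (log2 fold change -2.10, adjusted p = 0.099) and Sprr1a (log2 fold change -1.49, adjusted p = 0.23) did not pass.

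Of 18 transcription factors of epithelial identity 4 rose and 4 fell, the latter 2 without t2 347. Foxa2, a forkhead factor of airway secretory cells, rose from 9.16 ± 3.29 to 31.7 ± 9.53 CPM (log2 fold change 1.79 ± 0.29, adjusted p = 3.1e-05). Hopx, a homeodomain protein, fell from 338 ± 54.9 to 166 ± 17.2 CPM (log2 fold change -1.03 ± 0.15, adjusted p = 9.2e-06). Cldn23, a claudin of tight junctions, fell (log2 fold change -1.02 ± 0.24, adjusted p = 0.0018), with 5 of 17 junction genes lower in all and 1 higher. Among 11 ionocyte and proton pump genes 3 rose and 2 fell. The pump subunits Atp6v1c2 (log2 fold change 2.59 ± 0.27, adjusted p = 2.9e-07) and Atp6v1b1 (log2 fold change 2.65 ± 0.31, adjusted p = 1.0e-06) rose. Another pump subunit of that list, Atp6v0d2, which osteoclasts and macrophages also make, fell from 55.9 ± 27.7 to 7.10 ± 3.22 CPM (log2 fold change -2.98 ± 0.63, adjusted p = 6.2e-04). Foxi1, the factor that defines ionocytes, had a log2 fold change of -1.02 (adjusted p = 0.23). None of 14 neuroendocrine genes passed, or 1 fell without the library labelled t2 339, and their median log2 fold change against baseline was 1.22 at t0 and 1.02 at t2. Among 12 tuft cell genes 5 fell, or 3 without t0 357. The smallest p-values among these were those of Plcb2, a phospholipase (log2 fold change -2.21 ± 0.36, adjusted p = 2.8e-05), and Alox5ap, a leukotriene synthesis protein (log2 fold change -1.93 ± 0.37, adjusted p = 2.2e-04), both of which leukocytes also make. Pou2f3, the transcription factor that defines tuft cells, fell (log2 fold change -0.92 ± 0.32, adjusted p = 0.03). The defining tuft genes Trpm5 and Gnat3 did not pass, with adjusted p-values of 0.99 and 0.56.

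Of 33 p53 targets tested, 17 fell and 1 rose, the latter 3 without t0 359 and 0 without t0 332, t0 357, t0 367 or the library labelled t2 339. Cdkn1a, the p53-induced inhibitor of cell division (chr17:29090986-29100723), stood at 258, 525 and 642 CPM (lowest, median and highest) in the 6 t0 libraries and at 140.3, 133, 101, 152 and 139 CPM in the t2 libraries 334, 339, 347, 358 and 360. The groups did not overlap (log2 fold change -1.84 ± 0.24, adjusted p = 2.9e-06), and the t2 log2 fold change against the baseline of 64.6 ± 6.35 CPM was 1.04. Ccng1, a cyclin induced by p53, fell from 232 ± 56.7 to 73.9 ± 12.2 CPM (log2 fold change -1.65 ± 0.19, adjusted p = 7.0e-07), and Zmat3, an RNA-binding target of p53, from 44.1 ± 6.80 to 19.6 ± 2.51 CPM (log2 fold change -1.17 ± 0.13, adjusted p = 7.0e-07). Most repair genes did not pass, nor did most of all genes tested (29.9% called). Among 23 genes of alkylation and base excision repair 3 fell and 1 rose, or 5 and 1 without the library labelled t2 339. Mgmt, which removes methyl groups from guanine in DNA (chr7:136894611-137128189), stood at 14.9, 21.4 and 29.3 CPM (lowest, median and highest) in the 6 t0 libraries and at 8.63, 8.39, 8.57, 8.92 and 7.97 CPM in the t2 libraries 334, 339, 347, 358 and 360. All t2 values lay below all t0 values (log2 fold change -1.33 ± 0.22, adjusted p = 3.8e-05). Ogg1, the glycosylase for oxidised guanine, rose (log2 fold change 1.12 ± 0.18, adjusted p = 2.9e-05). Of 33 other repair genes 3 fell (6 without the library labelled t2 339) and 1 rose (4 without t0 359, 2 without the library labelled t2 339). Brca2, of recombination repair, fell with the smallest p of these (log2 fold change -1.41 ± 0.35, adjusted p = 0.0026).

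Of 30 genes of G2/M and mitosis 19 fell and 0 rose, with 24 lower without the library labelled t2 339 and 10 without t0 375. Mki67, the marker of cycling cells (chr7:135689788-135716380), stood at 22.02, 62.1 and 113 CPM (lowest, median and highest) in the 6 t0 libraries and at 8.98, 19.1, 21.1, 6.17 and 24.3 CPM in the t2 libraries 334, 339, 347, 358 and 360. The ranges overlapped, since the lowest t0 value of 22.02 CPM lay under the highest t2 value of 24.3 (log2 fold change -2.03 ± 0.41, adjusted p = 4.1e-04). Bub1b, a spindle checkpoint kinase, fell from 12.8 ± 5.92 to 3.35 ± 1.94 CPM (log2 fold change -1.93 ± 0.38, adjusted p = 2.8e-04). The median log2 fold change of the mitotic list against baseline was 1.43 at t0 and 0.11 at t2. In the G1/S list 2 of 30 fell and 1 rose, with 4 lower without the library labelled t2 339, 1 without t0 332, t0 357, t0 375 or t2 334, 5 without t0 359, t0 367 or t0 374 and 8 without t2 360. Rrm1, a ribonucleotide reductase subunit, had the smallest p among the falls (log2 fold change -1.06 ± 0.20, adjusted p = 2.0e-04).

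Of 24 macrophage genes tested, 19 fell and 1 rose (21 and 1 without the library labelled t2 339), with a median log2 fold change of -2.63. Cd68, a macrophage lysosomal glycoprotein (chr11:69664213-69666171), stood at 62.1, 147 and 268 CPM (lowest, median and highest) in the 6 t0 libraries and at 14.9, 16.7, 24.2, 22.1 and 22.2 CPM in the t2 libraries 334, 339, 347, 358 and 360 (log2 fold change -3.02 ± 0.39, adjusted p = 2.7e-06). Fcgr1, the high-affinity immunoglobulin receptor of macrophages, fell (log2 fold change -2.91 ± 0.43, adjusted p = 8.3e-06). Ear1, a ribonuclease of eosinophils and alveolar macrophages, fell from 24.3 ± 14.5 to 1.02 ± 0.811 CPM (log2 fold change -4.58 ± 0.99, adjusted p = 8.2e-04). The t0 and t2 libraries did not overlap for 16 of the 24, against 12.7% of all genes tested. The 1 that rose was Lyz2, described above with the surfactant genes. Without Lyz2 the list's summed level was 1513 to 3691 CPM at t0, 687 to 1247 at t2 and 474 to 786 at baseline. No defining macrophage marker was at 0 in any library. Of 26 lysosome and autophagy genes 14 fell and 2 rose, and Ctsz, a lysosomal cathepsin, was among those that fell (log2 fold change -2.00 ± 0.25, adjusted p = 1.8e-06). Atg9b, an autophagy gene of that list, fell from 108 ± 48.4 to 3.83 ± 4.87 CPM (log2 fold change -4.80 ± 0.60, adjusted p = 1.9e-06), or -5.99 without the library labelled t2 339, against 0.166 ± 0.119 CPM at baseline.

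Of 18 T and NK cell genes tested (of 23 listed), 14 fell and 0 rose, but 5 fell when t0 375 was left out (13 without the library labelled t2 339). Cd2, an adhesion receptor of T and NK cells (chr3:101275908-101287940), stood at 4.64, 12.6 and 27.5 CPM (lowest, median and highest) in the 6 t0 libraries and at 0.989, 0, 2.44, 1.49 and 1.86 CPM in the t2 libraries 334, 339, 347, 358 and 360 (log2 fold change -3.36 ± 0.64, adjusted p = 2.0e-04). The t0 and t2 ranges did not overlap. The list's summed level was 292 CPM in t0 375, 33.6 to 83.0 in the other t0 libraries and 15.5 to 31.2 at t2. Cd3e, which defines T cells, stood at 0.772, 1.46 and 16.1 CPM (lowest, median and highest) at t0, with a baseline median of 0.60. At t2 it was at 0 in 1 library and at most 0.799 CPM in the rest. Ly9, a lymphocyte surface receptor, fell from 18.4 ± 11.5 to 0.944 ± 0.773 CPM (log2 fold change -4.29 ± 0.61, adjusted p = 6.2e-06). Havcr2, an inhibitory receptor of T and myeloid cells, fell (log2 fold change -2.92 ± 0.79, adjusted p = 0.0061). In its list of checkpoint genes 8 of 12 fell and 0 rose, with 5 lower without t0 375. The homing receptor Ccr7, of lymphocytes and dendritic cells, fell (log2 fold change -4.19 ± 0.98, adjusted p = 0.0017), with -4.81 without t2 334. Of 13 dendritic cell genes 5 fell and 0 rose. Among 13 neutrophil genes 1 rose and 2 fell (1 and 1 without the library labelled t2 339), and among 12 B and plasma cell genes 1 rose and 2 fell (2 and 3 without it). The B cell marker Cd79a did not pass, with an adjusted p of 0.79.

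Of 8 mast cell, basophil and eosinophil genes 4 rose (2 without the library labelled t2 339) and 1 fell. Tpsb2, a tryptase of mast cells, rose from 0.702 ± 0.273 to 4.27 ± 1.26 CPM (log2 fold change 2.59 ± 0.70, adjusted p = 0.0055, or adjusted p = 0.16 by limma's voom with quality weights), and Hdc, the enzyme that makes histamine, from 87.1 ± 42.0 to 241 ± 77.0 (log2 fold change 1.47 ± 0.28, adjusted p = 1.7e-04). Siglecf, a lectin of eosinophils and alveolar macrophages, fell from 15.8 ± 9.26 to 1.57 ± 1.47 CPM (log2 fold change -3.34 ± 0.92, adjusted p = 0.0066), or -4.04 without t2 360. The mast cell protease Cpa3 was at or under 1.93 CPM in every library of both groups.

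Of 29 interferon-stimulated genes tested, 14 fell and 1 rose, with 9 lower when t2 334, t2 347 or t2 358 was left out. Cxcl10, a chemokine that draws T cells (chr5:92346639-92348890), stood at 4.73, 13.7 and 34.7 CPM (lowest, median and highest) in the 6 t0 libraries and at 1.52, 0, 0.792, 0.594 and 0.664 CPM in the t2 libraries 334, 339, 347, 358 and 360 (log2 fold change -4.43 ± 1.08, adjusted p = 0.0024). The groups did not overlap. Ubd, a ubiquitin-like protein induced by interferon gamma, had the largest fall among the genes named by size, from 22.9 ± 36.9 to 0.289 ± 0.236 CPM (log2 fold change -6.29 ± 1.22, adjusted p = 2.8e-04), or -4.81 without t0 375. Ifit2, an antiviral protein, fell (log2 fold change -4.03 ± 0.69, adjusted p = 6.1e-05), with -4.92 without t2 360. The guanylate-binding protein Gbp2 fell as well (log2 fold change -2.74 ± 0.50, adjusted p = 1.3e-04). Ifi27, another interferon-induced gene, rose (log2 fold change 0.85 ± 0.18, adjusted p = 8.0e-04). In MHC class I presentation, which shows peptides to T cells, 14 of 22 genes fell and 0 rose (12 and 0 without the library labelled t2 339). They included Tapbp, the tapasin that loads peptides (log2 fold change -1.05 ± 0.14, adjusted p = 3.3e-06), and the immunoproteasome subunit Psmb10 (log2 fold change -1.39 ± 0.21, adjusted p = 1.6e-05). In MHC class II presentation 3 of 10 fell, or 5 without t0 359 or without t2 334. H2-Aa and H2-Ab1, the chains of the class II molecule, fell, with overlapping groups (log2 fold change -1.85 ± 0.51, adjusted p = 0.0075 and log2 fold change -1.91 ± 0.49, adjusted p = 0.0041). The part of the macrophage and T cell RNA above in these falls was not tested.

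Of 26 chemokine genes 8 fell and 3 rose. Cxcl17, a chemokine of mucosal epithelium, was among the rises, from 310.5 ± 106 to 624 ± 55.6 CPM (log2 fold change 1.01 ± 0.20, adjusted p = 3.1e-04). Il18, an interleukin processed by inflammasomes, fell (log2 fold change -2.47 ± 0.48, adjusted p = 2.4e-04), with -3.09 without t2 360. Birc3, a target of NF-kB that blocks cell death, fell too (log2 fold change -0.97 ± 0.19, adjusted p = 2.6e-04). In the NF-kB and cytokine list 9 of 21 fell and 0 rose. Il6st, the shared receptor of the interleukin 6 family, rose (log2 fold change 0.57 ± 0.12, adjusted p = 6.4e-04), and Il17ra, a receptor for interleukin 17, fell (log2 fold change -1.02 ± 0.17, adjusted p = 3.6e-05). Their list had 6 higher and 4 lower of 21, with 3 higher without t0 332 or without t0 357.

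**Figure D4:**
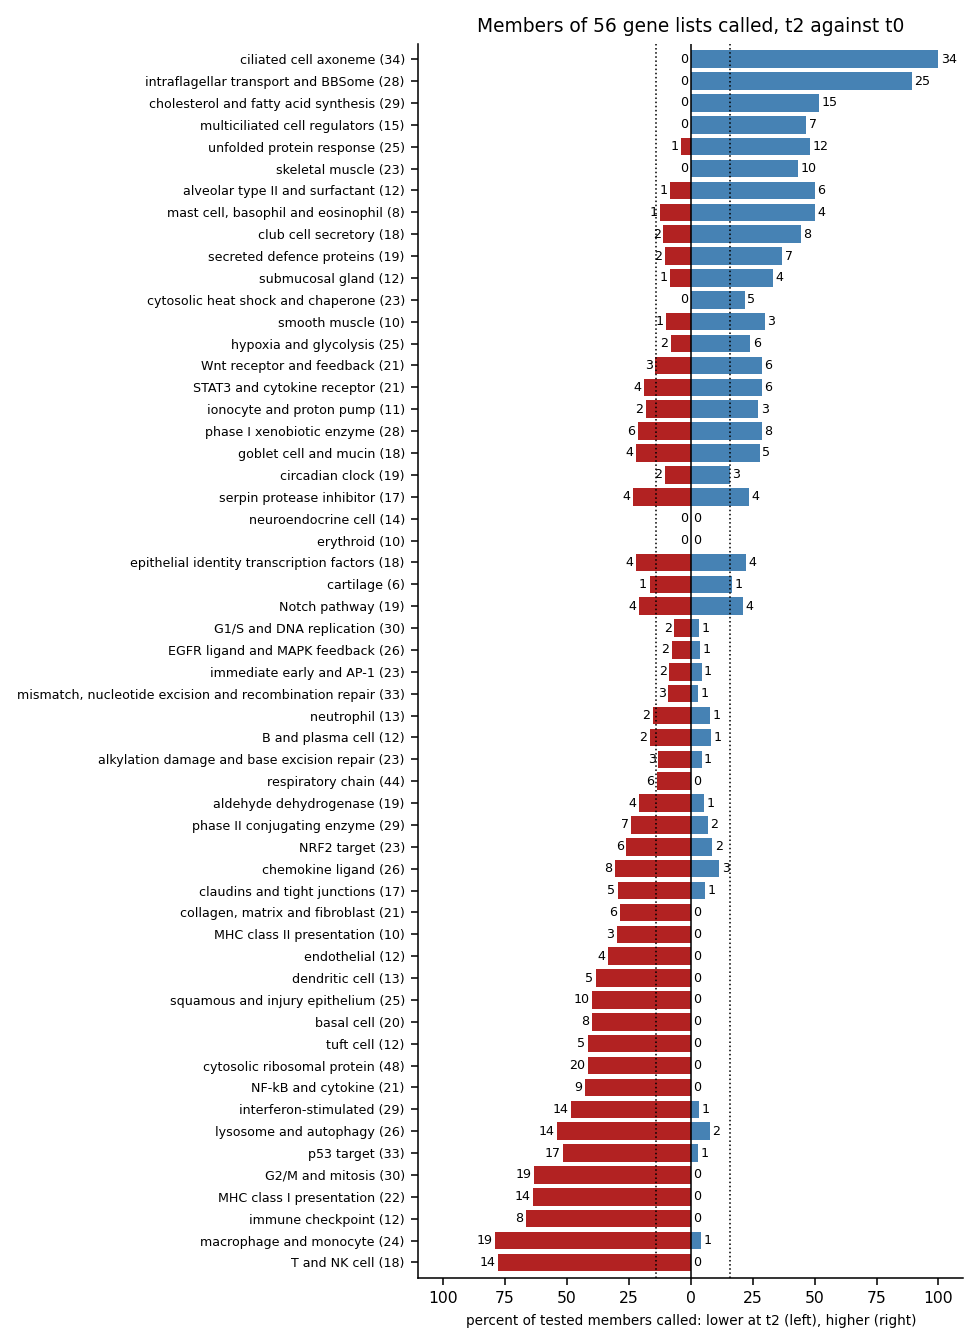
Bars give the percent of tested members (number in brackets) of each list called higher (right) or lower (left) at t2, with the counts at the bar ends and dotted lines at the 15.7% and 14.2% of all genes tested. The axoneme list reaches 34 of 34 on the right, and T and NK cell genes 14 of 18 on the left.

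Enzymes that handle foreign compounds were called in both directions, as were all genes tested (15.7% higher and 14.2% lower). In phase I metabolism 8 of 28 genes rose and 6 fell. Cyp2s1, an airway cytochrome P450, rose from 159 ± 72.3 to 563 ± 129 CPM (log2 fold change 1.82 ± 0.24, adjusted p = 3.0e-06), and the carboxylesterase Ces1f from 14.5 ± 8.66 to 101 ± 52.4 (log2 fold change 2.79 ± 0.38, adjusted p = 4.3e-06). Ephx1, the microsomal epoxide hydrolase, fell from 518 ± 131 to 213 ± 36.9 CPM (log2 fold change -1.28 ± 0.19, adjusted p = 7.3e-06). Ces2f, another carboxylesterase, had the smallest p among the genes ranked for naming. It went from 35.4 ± 7.50 to 4.59 ± 1.36 CPM (log2 fold change -2.94 ± 0.23, adjusted p = 3.9e-09), with 2.84 ± 0.798 at baseline. In phase II metabolism 7 of 29 fell and 2 rose. The glucuronosyltransferase Ugt1a7c, which shares its last exons with the other Ugt1a genes, fell from 18.9 ± 8.23 to 1.94 ± 0.708 CPM (log2 fold change -3.28 ± 0.53, adjusted p = 2.6e-05). The sulfotransferase Sult1c1 rose from 3.88 ± 1.78 to 25.8 ± 18.1 (log2 fold change 2.73 ± 0.53, adjusted p = 2.8e-04, or adjusted p = 0.12 by voom with quality weights), still below its baseline of 117 ± 77.7 CPM.

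Among 19 aldehyde dehydrogenases 1 rose and 4 fell, and 5 rose without the library labelled t2 339. Aldh1a3, which makes retinoic acid (chr7:66390893-66427478), stood at 10.1, 20.3 and 33.3 CPM (lowest, median and highest) in the 6 t0 libraries and at 2.02, 2.43, 2.55, 0.743 and 0.576 CPM in the t2 libraries 334, 339, 347, 358 and 360. Every t2 value lay under 10.1 CPM, the lowest at t0 (log2 fold change -3.59 ± 0.59, adjusted p = 3.6e-05). Aldh3b1, which oxidises lipid aldehydes, rose (log2 fold change 1.37 ± 0.19, adjusted p = 4.5e-06). Of 23 targets of the oxidant sensor NRF2, 6 fell and 2 rose. Fth1, the ferritin heavy chain, fell from 2459 ± 581 to 1157 ± 150.1 CPM (log2 fold change -1.09 ± 0.16, adjusted p = 1.2e-05), and Gsr, glutathione reductase, rose (log2 fold change 0.45 ± 0.11, adjusted p = 0.0025, or adjusted p = 0.073 with scaling by library totals).

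Nearly all called genes of lipid synthesis and of endoplasmic reticulum stress were higher at t2. In the cholesterol and fatty acid list 15 of 29 tested genes rose and 0 fell (13 and 0 without the library labelled t2 339). Sqle, the squalene epoxidase (chr15:59315092-59331194), stood at 21.99, 27.5 and 61.7 CPM (lowest, median and highest) in the 6 t0 libraries and at 92.5, 74.1, 125, 81.8 and 81.4 CPM in the t2 libraries 334, 339, 347, 358 and 360. The t0 high again came from t0 359, and the groups did not overlap (log2 fold change 1.47 ± 0.20, adjusted p = 3.0e-06). Srebf2, the transcription factor of the sterol pathway, rose (log2 fold change 0.71 ± 0.12, adjusted p = 5.9e-05), and its t2 log2 fold change against baseline was 0.61. The list's median log2 fold change against baseline was -0.18 at t0 and 0.46 at t2. Of 25 genes of the unfolded protein response 12 rose and 1 fell (10 and 1 without the library labelled t2 339). Xbp1, the transcription factor of secretory load, rose from 175 ± 42.2 to 364 ± 109 CPM (log2 fold change 1.06 ± 0.19, adjusted p = 1.2e-04), and Asns, asparagine synthetase (log2 fold change 1.24 ± 0.20, adjusted p = 3.1e-05), and Creld2 (log2 fold change 0.74 ± 0.13, adjusted p = 5.6e-05) rose too. Ddit3, the stress factor tied to cell death, fell (log2 fold change -0.79 ± 0.22, adjusted p = 0.0062) and was the member of the list called lower.

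Of 48 ribosomal protein genes 20 fell and 0 rose, with a median log2 fold change of -0.54. Examples are Rps9 (log2 fold change -0.70 ± 0.16, adjusted p = 0.0017) and Rpl32 (log2 fold change -0.68 ± 0.16, adjusted p = 0.0021), of the small and the large subunit. The ribosomal list's median log2 fold change against baseline was 0.07 at t0 and -0.41 at t2. The 45S precursor Rn45s took 3.39 to 6.30% of counts at t0 and 1.24 to 3.33% at t2, and its part in these falls was not tested. Of 44 respiratory chain genes 6 fell, or 2 without the library labelled t2 339 and 3 without t0 374. Slc2a1, a glucose transporter, rose (log2 fold change 1.08 ± 0.18, adjusted p = 3.1e-05) and Bnip3, a mitophagy receptor induced by low oxygen, rose too (log2 fold change 1.51 ± 0.23, adjusted p = 1.6e-05), in a list with 6 of 25 higher and 2 lower (7 and 1 without the library labelled t2 339).

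Genes of the Notch and Wnt pathways, which set the fate of basal cell progeny, were called in both directions. So were all genes tested, with 15.7% higher and 14.2% lower. Notch1, a receptor, fell from 140.2 ± 19.3 to 64.4 ± 12.2 CPM (log2 fold change -1.12 ± 0.16, adjusted p = 7.0e-06), and Hey1, a transcriptional target of Notch, rose from 14.9 ± 5.80 to 40.4 ± 7.48 (log2 fold change 1.44 ± 0.21, adjusted p = 7.2e-06). Of 19 Notch pathway genes 4 rose and 4 fell, the latter 2 without t0 332, t0 357 or t2 347. Wnt4, a ligand, fell from 469 ± 356 to 135 ± 46.7 CPM (log2 fold change -1.79 ± 0.33, adjusted p = 1.4e-04). Lgr6, a receptor that strengthens Wnt signals, rose from 25.8 ± 8.64 to 93.3 ± 23.3 CPM (log2 fold change 1.86 ± 0.25, adjusted p = 3.8e-06), and Porcn, the enzyme that acylates Wnt ligands, from 77.0 ± 28.0 to 233 ± 43.4 (log2 fold change 1.60 ± 0.24, adjusted p = 1.0e-05). The Wnt list had 6 of 21 higher and 3 lower, the latter 1 without t0 375. In the clock list 3 of 19 rose and 2 fell. The repressor Cry1 rose (log2 fold change 1.05 ± 0.18, adjusted p = 6.3e-05), and the output factor Hlf fell (log2 fold change -1.28 ± 0.17, adjusted p = 3.5e-06). The labels give no hour of sampling. Of 26 EGFR and MAPK feedback genes 1 rose and 2 fell (1 and 1 without the library labelled t2 339). Of 23 immediate early genes 1 rose and 2 fell, but 2 rose and 0 fell without the library labelled t2 339. None fell either without t0 332, t0 357, t2 347 or t2 360. These shares lie below the 15.7% and 14.2% of all genes tested.

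Some genes of connective tissue and vessels were lower and some muscle genes higher. Col1a1, the main fibrillar collagen, fell from 41.0 ± 16.2 to 11.7 ± 3.69 CPM (log2 fold change -1.81 ± 0.39, adjusted p = 7.3e-04), with 6 of 21 matrix genes lower (3 without t0 374) and 0 higher (1 without the library labelled t2 339). The fibroblast markers Dcn (log2 fold change 0.14, adjusted p = 0.80) and Pdgfra (log2 fold change -0.70, adjusted p = 0.20) did not pass. Of 12 endothelial genes 4 fell, or 2 without t0 374, t0 375 or t2 358. They included Flt1, a receptor for vascular growth factor (log2 fold change -2.71 ± 0.83, adjusted p = 0.014), and Vwf, von Willebrand factor (log2 fold change -1.27 ± 0.35, adjusted p = 0.0072, or adjusted p = 0.072 with only the 11 libraries in the fit). Among muscle genes the level in t2 360 stood apart. Acta1, the actin of skeletal muscle (chr8:123891758-123894776), stood at 0.547, 4.15 and 41.1 CPM (lowest, median and highest) in the 6 t0 libraries and at 79.4, 92.3, 56.9, 44.9 and 557 CPM in the t2 libraries 334, 339, 347, 358 and 360. The groups did not overlap (log2 fold change 3.53 ± 0.99, adjusted p = 0.0087), but without t2 360 the log2 fold change was 2.25 (adjusted p = 0.07), and without t0 367 it was 4.18. Mb, myoglobin, rose (log2 fold change 3.48 ± 0.79, adjusted p = 0.0014), with 2.81 without t2 360. The intermediate filament gene Des rose (log2 fold change 3.36 ± 0.90, adjusted p = 0.0058), with 2.45 without that library. In skeletal muscle 10 of 23 genes rose and 0 fell, with 2 higher without t2 360, 4 without t0 332, t0 374 or t0 375, 5 without t0 359 and 18 without t0 367. By voom with quality weights, Mb (adjusted p = 0.23), Des (adjusted p = 0.081) and Cnn1 (adjusted p = 0.067) did not pass. The skeletal muscle list's summed level was 2408 CPM in t2 360, 183 to 555 in the other t2 libraries and 36.0 to 359 at t0. Among 10 smooth muscle genes 3 rose and 1 fell (6 higher without t2 358), with calponin, Cnn1, among the rises (log2 fold change 2.32 ± 0.59, adjusted p = 0.0037). The smooth muscle markers Acta2 (log2 fold change 1.43, adjusted p = 0.098) and Myh11 (log2 fold change 1.18, adjusted p = 0.099) did not pass. Nor did the skeletal muscle markers Ckm (log2 fold change 2.59, adjusted p = 0.11) and Myh4 (log2 fold change 2.29, adjusted p = 0.15). Of 6 cartilage genes 1 rose and 1 fell. None of 10 red cell genes passed, with a summed level of 203 to 280794 CPM at t0 and 6455 to 17066 at t2. The part of muscle and blood RNA in other results was not tested.

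Among the genes ranked for naming, the 5 smallest p-values in each direction included those of 6 genes not yet described. Fads3, of the fatty acid desaturase family (chr19:10041548-10059672), stood at 14.0, 19.2 and 43.6 CPM (lowest, median and highest) in the 6 t0 libraries and at 93.6, 91.0, 100.1, 91.1 and 108 CPM in the t2 libraries 334, 339, 347, 358 and 360. The t2 values were close together and above every t0 value (log2 fold change 2.03 ± 0.20, adjusted p = 1.3e-07), and the t2 log2 fold change against baseline was 1.10. Atp8a1, a phospholipid flippase, rose (log2 fold change 1.41 ± 0.14, adjusted p = 1.2e-07), and so did Sec14l4, of a lipid-binding family (log2 fold change 1.52 ± 0.15, adjusted p = 2.1e-07). Def6, a guanine exchange factor of lymphocytes, fell (log2 fold change -2.12 ± 0.20, adjusted p = 1.2e-07). Kctd12, of a family of receptor-associated proteins (log2 fold change -1.85 ± 0.18, adjusted p = 1.2e-07), and the G protein subunit Gna15 (log2 fold change -2.36 ± 0.24, adjusted p = 2.3e-07) fell in the same way. The largest falls also held Plcd4, a phospholipase, from 12.1 ± 4.78 to 0.369 ± 0.328 CPM (log2 fold change -5.04 ± 0.77, adjusted p = 1.4e-05), and Gria3, a glutamate receptor subunit, from 10.02 ± 4.56 to 0.484 ± 0.253 CPM (log2 fold change -4.37 ± 0.49, adjusted p = 7.0e-07). In the serpin family, 4 of 17 rose and 4 fell. Serpinb12 rose from 10.6 ± 6.13 to 56.5 ± 21.4 CPM (log2 fold change 2.41 ± 0.34, adjusted p = 7.0e-06), and Serpinb1a, an inhibitor of neutrophil proteases, fell from 87.8 ± 42.8 to 35.2 ± 7.76 (log2 fold change -1.32 ± 0.26, adjusted p = 3.5e-04).

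A further set of genes changed after exposure although their t0 mean lay within 0.5 log2 units of baseline. Akr1c18, an aldo-keto reductase that inactivates progesterone (chr13:4132627-4150632), stood at 94.6, 147 and 215 CPM (lowest, median and highest) in the 6 t0 libraries and at 19.0, 26.3, 26.5, 30.7 and 9.74 CPM in the t2 libraries 334, 339, 347, 358 and 360. The baseline mean of 110.3 ± 49.8 CPM and the t0 mean of 154 ± 48.4 lay above all t2 values (log2 fold change -2.77 ± 0.35, adjusted p = 1.9e-06), and the t2 log2 fold change against baseline was -2.30. Kcnj15, an inward rectifier potassium channel, rose from 20.8 ± 12.7 to 117 ± 60.9 CPM (log2 fold change 2.49 ± 0.50, adjusted p = 3.8e-04), against 17.2 ± 13.4 at baseline. Col1a1, given above, belongs to the same set, with 35.2 ± 17.1 CPM at baseline.

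Median log2 fold changes of the lists against baseline are given side by side, as descriptions, since both times share the baseline libraries. That of the macrophage list was 2.92 at t0 and 0.45 at t2, and that of T and NK cells 2.36 and -0.59. For the squamous and injury list the medians were 1.75 and 1.17, for basal cells 1.01 and 0.56, and for club cells -1.59 and -1.01. The p53 list went from 0.74 to 0.03, and class I presentation from 0.97 to -0.04. Over all genes tested the medians were 0.02 and 0.02.

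**Figure D5:**
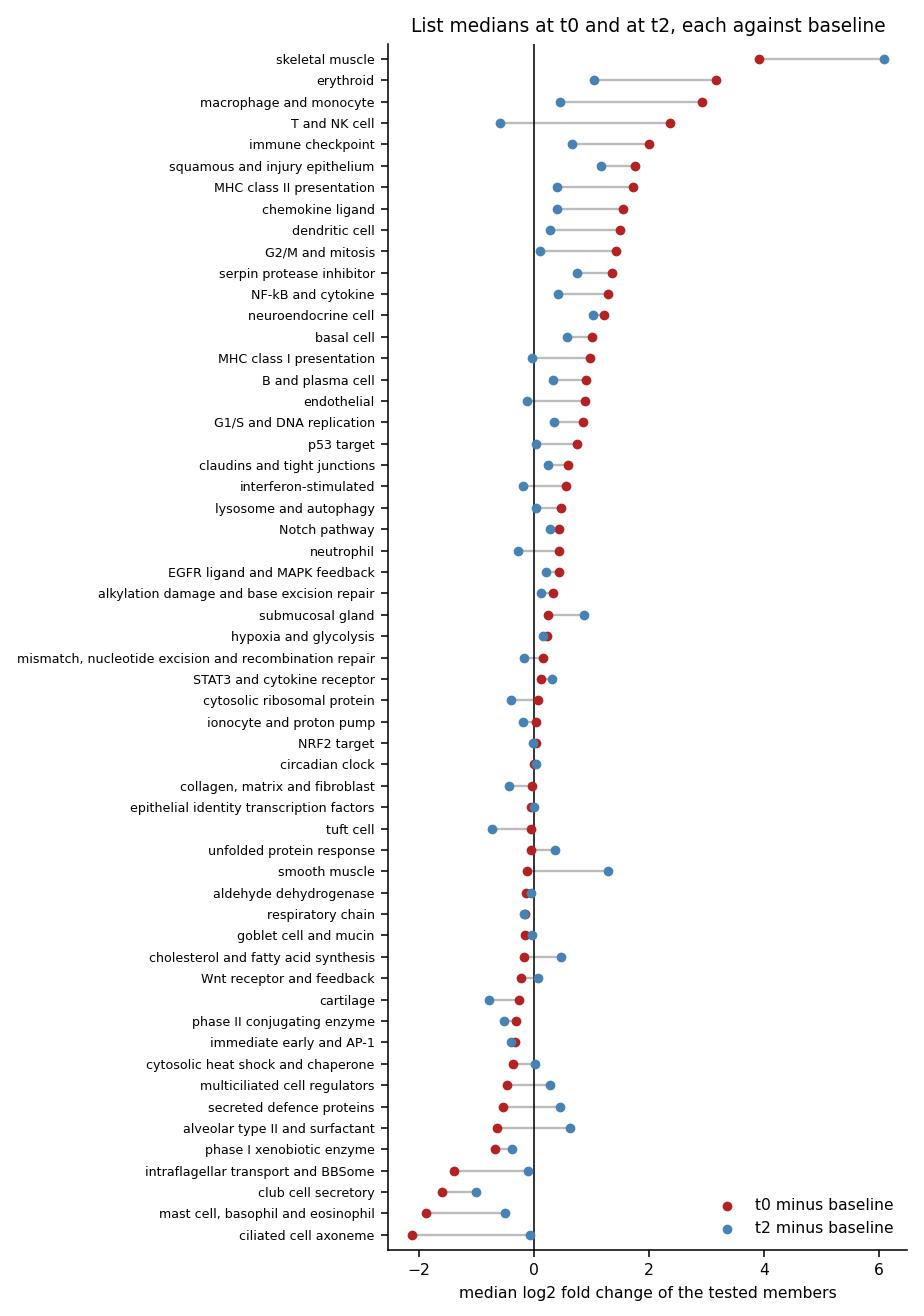
Points give the median log2 fold change of each list's tested members against baseline at t0 (red) and at t2 (blue), joined by a line, with lists sorted by the t0 value. The axoneme list moves from -2.12 to -0.07 and the neuroendocrine list from 1.22 to 1.02.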

How the data were processed

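RNA from brushed tracheal epithelium was sequenced on an Ion Proton from poly-A libraries made with the Ion Total RNA-Seq Kit v2, from samples with an RNA integrity number of at least 7, per the labels' protocols. The submitters' processing notes name mm10, STAR 2.4.1d, Bowtie2 2.1.0 and Partek, with no order or settings. The table the authors deposited for the 28 knockout libraries is named for RPKM but holds estimated counts (76.3% of values above 0 are whole within 0.01). These expected counts were rounded. Of 24223 rows, 27 symbols turned into dates by a spreadsheet and 4 repeated symbols stayed unnamed. The wild-type tables were not used here.

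edgeR 4.0.16 (R 4.3.3) fitted all 28 knockout libraries with TMM scaling, 1 mean per group and robust quasi-likelihood dispersions, keeping genes that reached 1 CPM in 5 or more libraries. The contrast was t2 minus t0, two-sided, with Benjamini-Hochberg adjustment over all 14847 genes and a threshold of 0.05. Each SE is the log2 fold change divided by the square root of F. The scripts were tested on simulated data. Levels are TMM-scaled CPM and come without an adjustment for length, so they are not compared between genes.

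The comparison, the 57 gene lists (1248 of 1269 listed symbols in the table) and the motifs were chosen with earlier results of these data known. Genes were named among those called with and without the library labelled t2 339: the 10 largest changes in each direction among genes reaching a mean of 10 CPM, the 5 smallest p-values in each direction, for each list with at least 3 called members the 2 smallest p-values in its main direction and 1 in the other, and the 5 largest changes in each direction among genes whose t0 mean lay within 0.5 log2 units of baseline. Outside the lists, these rankings left out symbols of Gm and a number or ending in Rik. They also left out microRNAs, small nucleolar RNAs, haemoglobins, Xist and Y-linked genes, which were counted but not named. Gprc5a, Scgb1a1, Foxj1, Krt5, Krt4 and Cdkn1a were added to the rule. Cell type markers were listed apart from the rule, and the text gives only some of them. Tekt1 was chosen after its values were seen. In all, 123 called genes were followed by name through the alternatives. Alternatives were each library left out in turn, scaling by library totals or without haemoglobin genes, other filters, only the 11 libraries, sex as a covariate, DESeq2 1.42.0, limma 3.58.1 on log2(CPM + 1) and voom with quality weights. Leaving out t2 339 and t0 357 together was added after the data were seen.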

Additional observations from a re-analysis of the deposited data

Results flagged for a closer look

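Within the groups of t0 and t2, 254 sets of values were tested for 1 library lying far from the rest (Dixon's ratio of the gap to the range), and 21 did. Chance gives about 1 in 20 such sets. The libraries are named with the range of the others in their group, and no explanation was tested.

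Library t0 359 stood apart for 8 genes. It held 26.2 CPM of Bbs2 (others 14.2 to 17.3), 29.4 of Rfx3 (9.45 to 13.1), 18.4 of Ogg1 (10.6 to 12.3) and 20.1 of Bnip3 (5.93 to 9.13). It also held 3.39 CPM of Tbata (0.459 to 0.957). It was low for Muc20 at 91.7 CPM (143 to 184), Tapbp at 304 (454 to 571) and Rps9 at 433 (655 to 728). In all 8 it lay on the side of the t2 libraries. This library also had the lowest position of the t0 group on the first principal component, 30.4 against 72.8 to 91.6. Library t0 332 was low for Sftpb at 0.273 CPM (1.85 to 3.45) and Creld2 at 51.6 CPM (57.0 to 60.3). Library t0 375 held 2.43 CPM of Cml3 (0.137 to 0.552). Haemoglobin took 22.8% of counts in t0 357 (0.0181 to 0.883%).

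The library labelled t2 339 had 0 CPM of Pyhin1 (0.557 to 0.841), 7.71 CPM of Gprc5a (0.487 to 1.24), 14283 genes above 0 (17234 to 18088) and 1.76% haemoglobin (0.695 to 0.856%). Library t2 358 held 11129 CPM of Lyz2 (6493 to 7554) and 2.90 CPM of Gna15 (5.95 to 7.54). Creb3l1 was at 26.1 CPM in t2 347 (38.9 to 44.1), H2-Ab1 at 133 CPM in t2 334 (67.3 to 78.4) and Acta1 at 557 CPM in t2 360 (44.9 to 92.3).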

How the results depend on the processing

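Over all alternatives the number of genes changed ranged from 2977, with only the 11 libraries in the fit, to 4912 with DESeq2. With only the 11 libraries, 1289 genes were lower at t2 in place of 2115. At a minimum of 10 CPM in 5 libraries, 1486 genes changed at least 2-fold in place of 2367, among 10822 genes tested in place of 14847. The other counts stayed within 1.5 times. Leaving out 1 library at a time gave 3917 (t0 332) to 4762 (t0 359) genes changed. Leaving out t2 339 and t0 357 together, an alternative chosen after seeing the data, gave 4277, of which 3602 were also called in the same direction with all libraries. Scaling by library totals gave 1679 genes higher and 2070 lower.

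Of the 123 called genes followed by name, none changed direction under any alternative in which it was tested. The called markers Spdef, Sftpc, Krt13 and Pou2f3, and the markers that did not pass, were not followed in this way. Among these, Trpm5 had a log2 fold change of -0.01 with all libraries and 0.31 without the library labelled t2 339. Calls were lost for Gprc5a without the library labelled t2 339 and under 4 other settings, for Acta1 without t2 360, for Irg1 without t2 334 (adjusted p = 0.054) or without t2 339 and t0 357, and for 9 genes under 1 setting each, whose values stand in the text. Under library totals the STAT3 list had 3 genes higher in place of 6, and 6 other counts of 2 or fewer moved by 1. Of 112 counts over lists (members higher or lower), 45 moved by over 1.5 times when 1 library was left out, 21 of these by 1 member at most. No paired analysis was possible because each library has its own animal number. Depth limits the precision for the lowest genes, such as Cpa3 at 0 to 1.93 CPM at t2.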

Other observations

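Among the largest rises and falls, some genes belong to no list. Cml3, an acetyltransferase family member, rose from 0.727 ± 0.851 CPM at t0 to 26.6 ± 18.2 at t2 (log2 fold change 5.17 ± 0.84, adjusted p = 3.4e-05), or 6.06 without t0 375, against 9.89 ± 11.7 at baseline. Tbata, a thymus, brain and testis gene, rose from 1.18 ± 1.10 to 11.9 ± 6.09 CPM (log2 fold change 3.27 ± 0.44, adjusted p = 3.4e-06), with 38.1 ± 12.9 at baseline. Irg1, which makes itaconate in activated macrophages, fell from 21.5 ± 13.3 to 1.07 ± 0.912 CPM (log2 fold change -4.32 ± 1.44, adjusted p = 0.024) and did not pass without t2 334 (adjusted p = 0.054). Pyhin1, an interferon-inducible gene, fell from 10.4 ± 2.75 to 0.518 ± 0.311 CPM (log2 fold change -4.32 ± 0.66, adjusted p = 1.4e-05).

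Genes that lay near baseline at t0 and moved by t2 included Cdhr1, a cadherin, which rose from 27.5 ± 19.4 to 138 ± 124 CPM (log2 fold change 2.33 ± 0.52, adjusted p = 0.0011, or 1.62 without t2 347). Bgn, biglycan of the extracellular matrix, fell from 70.8 ± 28.8 to 24.9 ± 7.23 CPM (log2 fold change -1.51 ± 0.35, adjusted p = 0.0014), and Tagln, transgelin of smooth muscle, rose from 5.91 ± 1.74 to 21.0 ± 12.3 CPM (log2 fold change 1.83 ± 0.52, adjusted p = 0.0079, or adjusted p = 0.11 by voom with quality weights). For these 3 genes the t0 and t2 libraries overlapped.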
